A study of Bos taurus with 12 samples.

Results

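Chemokines, interleukins and the TNF family, with their receptors, were followed in the bovine corpus luteum by the probes whose gene symbol on the array begins with CCL, CXCL, CCR or CXCR and a digit, with IL and a digit, or with TNFSF or TNFRSF. These were 69 genes, each with 1 probe, of 15208 probes other than controls: 38 encode ligands and 31 encode receptors. The samples were corpora lutea of Japanese-Black cows in 3 groups of 4 animals: P18, on gestation day 18; P15, on gestation day 15; and NP15, non-pregnant cows on day 15 of their estrous cycle. Insemination was counted as day 1, and each animal had 1 array. No group is labelled as treated. P18 against P15 compares days of pregnancy, P15 against NP15 compares pregnant with cyclic cows of the same day, and P18 against NP15 differs in both. All 8 markers of luteal steroidogenic cells checked were well above background on all 12 arrays.

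The corpus luteum is the gland that forms from the ovulated follicle and secretes progesterone, and it also holds endothelial cells, fibroblasts and leukocytes. Chemokines are small secreted proteins that draw leukocytes along a gradient and act through receptors spanning the membrane several times. Interleukins act through paired receptor chains, several of which are shared between ligands, and the TNF superfamily (TNFSF) ligands bind receptors (TNFRSF) that signal for survival, activation or death. In cattle, leukocytes and their cytokines are best known in this gland for their part in luteal regression. In whole tissue, fewer cells of a type and less RNA per cell cannot be told apart.

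By family there were 16 chemokine ligands, 9 chemokine receptors, 18 interleukin ligands including the antagonist IL1RN, 14 interleukin receptors, 4 TNFSF ligands and 8 TNFRSF receptors. Current names are used where the array has older ones: IL8 on the array is CXCL8, CXCL6 is CXCL5, CXCL1 is GRO1, CCL3L1 is CCL3, IL8RB is CXCR1, IL17 is IL17A, IL28RA is IFNLR1, TNFRSF5 is CD40, TNFRSF6 is FAS and TNFSF5 is CD40LG. A probe labelled TNFRSF8 carries the accession and description of the ligand TNFSF8 and was counted as that ligand.

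Each member was read by a single probe of 60 bases, shown here for those the results turn on, in the order of bases that the scanner files give. CXCL2, CXCL3 and GRO1, neutrophil-attracting chemokines of 1 closely related group, had probes more alike than any other pair of members. The capitals mark the run of 25 bases that the CXCL3 and GRO1 probes share. In CXCL2 they mark only the longest stretch of that run held without a mismatch, 12 bases. Before it the CXCL2 probe also holds the start of the run, left in small letters, with a differing base between. CCL21 is shown as the member with the widest spread between animals, and the last 4 as receptors whose P18 animals all lay below both other groups.
CXCL2: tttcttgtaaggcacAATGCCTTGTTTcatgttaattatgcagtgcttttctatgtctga
CXCL3: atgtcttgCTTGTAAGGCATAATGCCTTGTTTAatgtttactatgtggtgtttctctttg
GRO1: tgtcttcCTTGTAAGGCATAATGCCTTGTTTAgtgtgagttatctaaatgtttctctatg
CCL21: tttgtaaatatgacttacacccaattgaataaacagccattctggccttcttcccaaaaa
IL17RE: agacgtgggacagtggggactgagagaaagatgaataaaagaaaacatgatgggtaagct
IL22RA1: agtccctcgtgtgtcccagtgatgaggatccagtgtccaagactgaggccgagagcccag
IL11RA: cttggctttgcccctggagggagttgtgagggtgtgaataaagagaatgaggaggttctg
TNFRSF21: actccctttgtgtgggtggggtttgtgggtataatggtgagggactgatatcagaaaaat

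At their best ungapped alignment, CXCL3 and GRO1 matched at 41 of 60 bases, CXCL2 and CXCL3 at 45 and CXCL2 and GRO1 at 37. The next most similar pair, IL1RN with CXCL16, matched at 32. Values of these 3 chemokines are therefore given as uncertain, since RNA of one could bind the probe of another, and how much did so was not tested. The members' probes were close to the rest in composition: the pentamer ATTTA, searched on the listed strand, occurred in 8.70% of the 69 members' probes and in 8.23% of all probes, and the median GC content was 41.7% among the members and 43.3% among all probes.

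Detection came first, because many cytokine probes were dim. Of the 69 members, 36 were well above background on all 12 arrays (52.2%, against 64.7% of all probes), 24 on some arrays and 9 on none (13.0%, against 9.71% of all probes). All 9 that were on none were ligands: CCL20, a chemokine for CCR6-bearing cells, the T-cell ligand CD40LG, and the interleukins IL2, IL3, IL5, IL7, IL13, IL17A and IL21, most of them products of activated lymphocytes. Chemokine ligands were measured most completely among the ligands, with 12 of 16 above background on all arrays: CCL2, CCL3, CCL5, CCL8, CCL14, CCL19, CCL21, CCL24, CCL25, CXCL3, CXCL5 and CXCL10. Their receptors were mostly dim, and only CCR8 and CXCR4 of 9 were above background on every array. Among 18 interleukin ligands only IL10, IL16, IL18 and IL1RN were, against 9 of 14 interleukin receptors, 2 of 4 TNFSF ligands (TNFSF8 and TNFSF13) and 7 of 8 TNFRSF receptors.

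Counted by spot, 59.8% of the members' spots were well above background in P18, 73.2% in P15 and 80.1% in NP15. Between 39 and 45 members were above background on a P18 array, 47 to 56 on a P15 array and 51 to 57 on an NP15 array. Over all probes the shares ran in the same order, at 70.4% in P18, 78.4% in P15 and 83.3% in NP15. The P18 arrays also had a higher background, with a negative-control net signal of 78.8 to 92.2 in P18, 32.1 to 36.4 in P15 and 34.7 to 38.5 in NP15. P18 lay alone on slide 2 and scan 2, while P15 and NP15 shared slide 1 and scan 1 in different slide rows, so batch and group cannot be told apart in either comparison with P18, nor slide row and group in P15 against NP15.

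**Figure D1:**
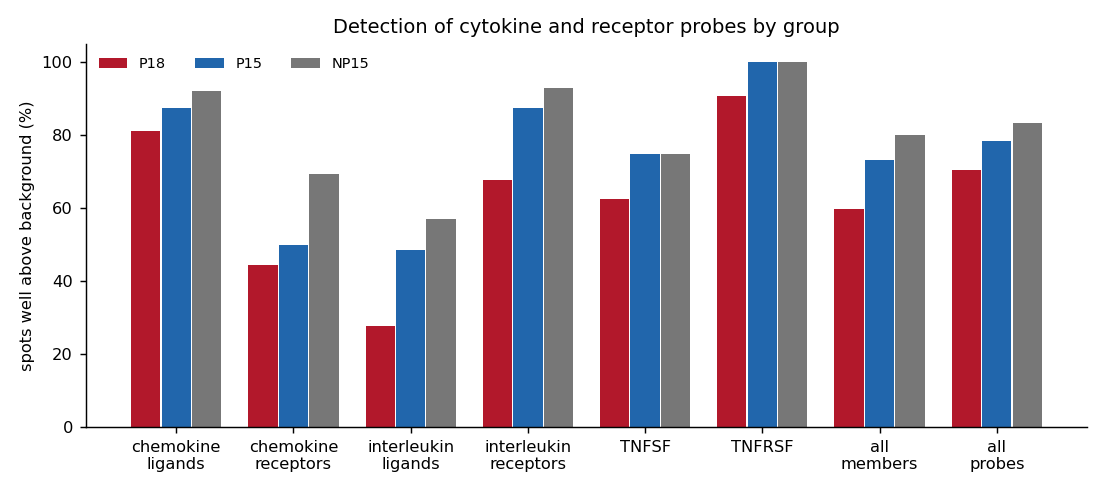
Percentage of spots well above background (vertical axis) for each family of members, for all 69 members and for all 15208 probes, in P18, P15 and NP15 (bars, 4 arrays each). Interleukin ligands had the lowest shares in all 3 groups (27.8% in P18, 48.6% in P15, 56.9% in NP15). TNFRSF receptors had the highest in all 3 (90.6% in P18, 100% in P15 and in NP15).

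For levels, signals are log2 of the processed signal over the array's 75th percentile (P75), so a value of 0 is as bright as the probe at that percentile. A member was tested if 3 or more arrays of any group had it well above background, a condition met by 54 members (28 ligands and 26 receptors). The members not tested, 15 in number, were the 9 above and IL4, CXCR1, CXCR6, CCR9, IL18RAP and IL12RB2. Dim spots end in a lowest value that many probes of an array share, which was -8.38 to -7.65 on the P18 arrays, -9.86 to -9.03 on P15 arrays and -10.39 to -9.64 on NP15 arrays. Of the tested members' spots, 13 sat at that value in P18, 3 in P15 and 1 in NP15, and these spots have no order among themselves.

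Animals of the same group differed widely in their chemokine ligands and less in most of the receptors, whose median spread was still above that of all genes. The SD between animals, pooled over the 3 groups, had a median of 0.65 log2 units over the 54 members, against 0.27 over all 12316 genes tested. It was 1.02 for the ligands and 0.47 for the receptors. It exceeded 1 for 19 members (35.2%), of which 17 were ligands, while 3.75% of all genes exceeded it. Chemokine ligands had a median of 1.14, and 12 of the 15 tested exceeded 1. These counts rested partly on 2 animals: 6 chemokine ligands and 12 members exceeded 1 without NP15 replicate 4, and 8 chemokine ligands and 14 members without P15 replicate 4. Restricted to genes above background on all 12 arrays, the median was 0.55 over 36 members and 0.23 over all 9604 such genes, and 9 of 12 chemokine ligands still exceeded 1.

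**Figure D2:**
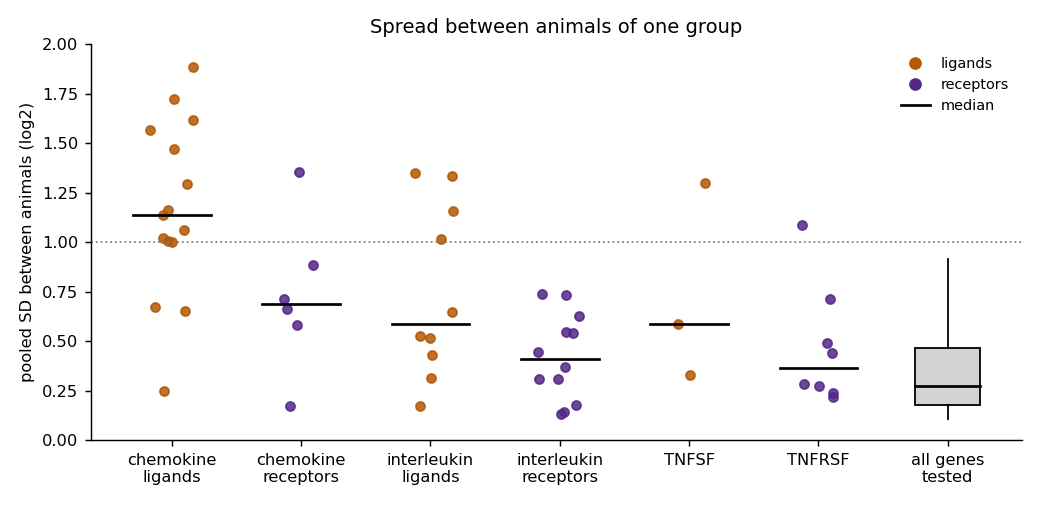
Pooled SD between animals of a group (vertical axis, log2 units) of each of the 54 tested members (points) by family, with the family median (bar). The box for all 12316 genes spans the interquartile range with the median as a line, and its whiskers run to the 5th and 95th percentiles. Of 15 chemokine ligands, 12 lie above the dotted line at 1 (6 without NP15 replicate 4 and 8 without P15 replicate 4), against 2 of the 26 receptors.

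CCL21, which draws T cells and dendritic cells through CCR7 and is made by lymphatic endothelium, had the highest pooled SD (1.89). Its values were 2.71, 2.51, 2.48 and 1.75 in the P18 animals, 1.48, 0.53, 1.80 and -5.09 in the P15 animals, and 1.30, 1.74, 1.00 and 1.07 in the NP15 animals. Nearly all of that spread came from P15 replicate 4, whose processed signal was 96.2 against 5433 to 12793 in the other P15 animals. This spot was well above background and not marked as irregular by the scanner software. Without that animal CCL21 averaged 1.27 ± 0.66 in P15 (SD, n = 3).

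The monocyte-attracting chemokines spread through all groups. CCL8 was -3.49, -0.50, 1.13 and 0.23 in P18, -2.37, -2.95, -1.33 and -0.12 in P15, and -3.08, -2.14, -0.99 and 0.01 in NP15. Within P18 that is a range of 4.62 log2 units, or 24.6-fold. CCL2, the main ligand of CCR2, was -0.12, 1.39, 1.14 and 0.40 in P18, -0.45, 0.07, 0.52 and 2.53 in P15, and -0.06, -0.10, 1.28 and 1.69 in NP15. The 3 groups overlapped throughout for both. CXCL10, an interferon-induced chemokine for CXCR3, was -0.37, -0.20, 2.24 and 1.29 in P18, -0.88, 0.22, 1.63 and 1.18 in P15, and 0.06, 0.47, 1.14 and 0.96 in NP15, again with complete overlap.

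Neutrophil-attracting ligands of the CXCL group varied as much. CXCL3 was -0.77, 1.10, -0.30 and -0.72 in P18, -1.82, -1.25, 0.26 and 0.64 in P15, and -1.08, -0.37, 0.62 and 2.81 in NP15. GRO1 was -4.97, -3.56, -3.84 and -7.03 in P18, -7.43, -5.59, -4.25 and -1.46 in P15, and -5.57, -5.27, -4.82 and -5.37 in NP15, and 1 P18 and 1 P15 spot were not above background. The P15 animals thus covered 5.98 log2 units for GRO1 and the NP15 animals less than 1. CXCL8 was above background on 1 of 4 P18 arrays, with values of -6.50, -7.05, -5.09 and -7.65, against -5.19, -4.27, -5.50 and -3.08 in P15 and -5.53, -5.52, -5.43 and -2.90 in NP15. Highest in its group was replicate 4 of P15 and of NP15 for CXCL2, CXCL3, CXCL5 and CXCL8.

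Single animals stood out in other ligands. CCL24, an eosinophil chemokine, was -0.60 in P18 replicate 4 (66.1% of the P75 signal) and -5.72 to -4.40 in the other P18 animals. CCL14, a monocyte chemokine, was low in P15 replicate 1 at -3.58, against -0.94 to -0.20 in the other P15 animals. It was also low in NP15 replicate 4 at -2.88, against -0.76 to -0.07 in the other NP15 animals. The probes of CCL24 and CCL14 lie in the outer 24 rows at an end of the array. CCL3, made by activated macrophages, was -6.39 in NP15 replicate 4, against -3.74 to -3.07 in the other 3 of NP15. CCL5, a chemokine made by T cells, reached 1.99 in P15 replicate 1. The steadiest chemokine ligand was CCL25, with a pooled SD of 0.25.

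**Figure D3:**
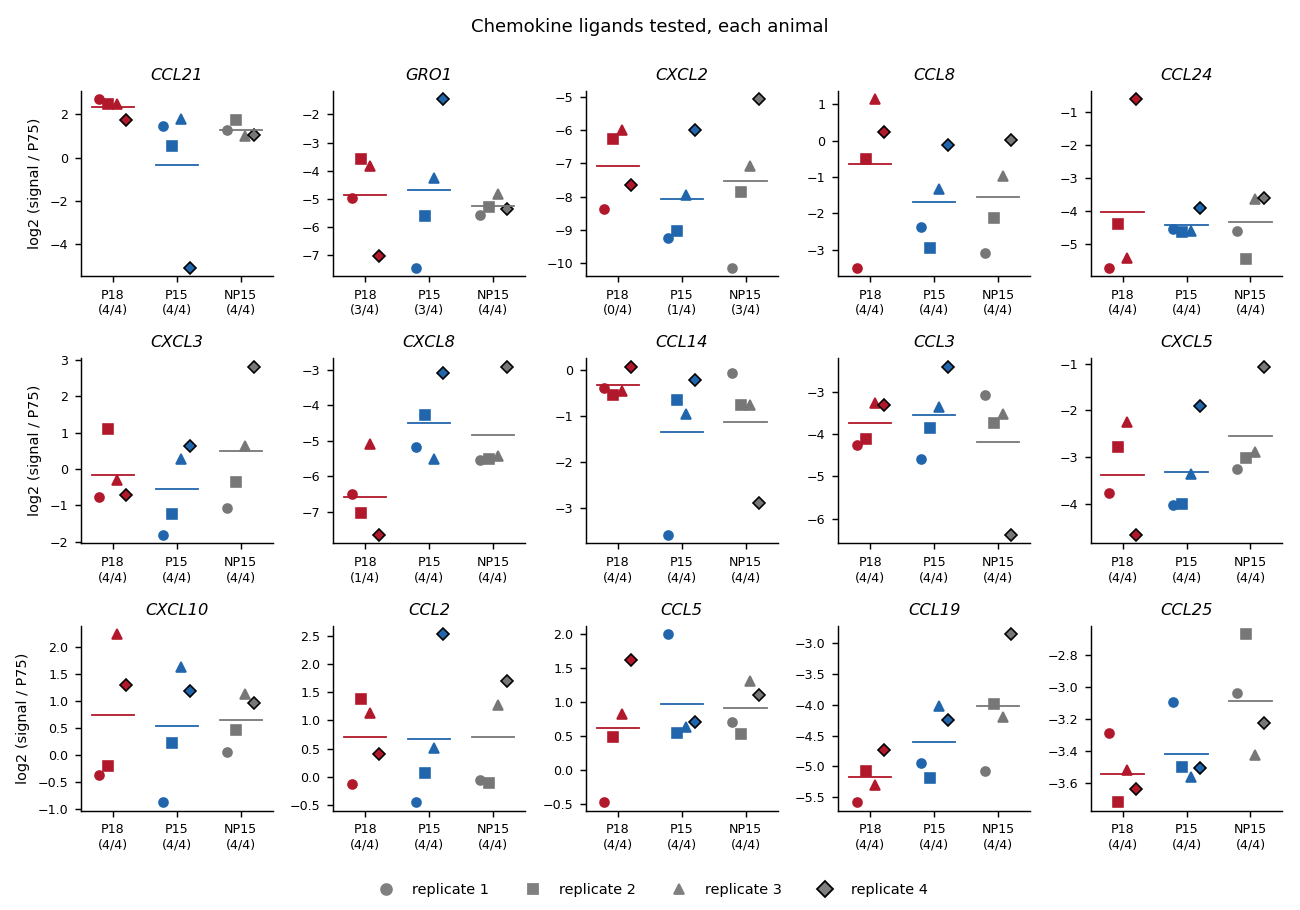
Log2 signal over P75 (vertical axis, its own scale in each panel) of the 15 tested chemokine ligands in each animal of P18, P15 and NP15, ordered by pooled SD, with the group mean as a line. Symbols mark the replicate number, which the labels do not describe as a pairing, and numbers under the groups give the arrays of 4 well above background. CCL21 in P15 replicate 4 (-5.09) and CCL24 in P18 replicate 4 (-0.60) lie apart from their groups.

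Interleukin ligands ranged from steady to variable, and only IL10 had a pooled SD under the median of all genes (0.27). IL10, an anti-inflammatory cytokine, had a pooled SD of 0.18 and lay between -3.41 and -3.21 in P18, -3.88 and -3.44 in P15, and -3.74 and -3.27 in NP15. The SD was 0.43 for IL18 and 0.53 for IL16, a T-cell attractant. The acute inflammatory cytokines varied most, with 1.35 for IL6, 1.33 for IL1A and 1.16 for IL1B. They were also dimmer, and their SDs include spots not above background. IL6 and IL1A were each above background on 7 of 12 arrays and IL1B on 10, against all 12 for IL10, IL16 and IL18. IL1B was -3.51, -6.64, -3.63 and -5.52 in P18, where 2 of 4 spots were above background, -6.40, -6.60, -4.87 and -4.10 in P15, and -5.73, -4.84, -5.31 and -4.56 in NP15. The antagonist of the IL1 receptor, IL1RN, was above background throughout with an SD of 0.65. TNFSF13B, the B-cell survival factor BAFF, had the highest SD of the TNFSF ligands (1.30), with 2 of 4 P18 spots above background.

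Receptors were steadier than the ligands, though their median SD (0.47) was above that of all genes (0.27). The lowest pooled SDs among all tested members were those of IL17RC (0.13), which pairs with IL17RA to bind IL17A, IL11RA (0.14), CCR8 (0.17), a chemokine receptor of regulatory and type 2 T cells, and the ligand IL10 (0.18), followed by the receptor IL13RA1 (0.18). TNFRSF1A, the widely expressed TNF receptor, lay between 2.14 and 2.36 in P18, 1.91 and 2.28 in P15, and 0.89 and 2.50 in NP15, where replicate 4 had the lowest value. Only CXCR3, the receptor for CXCL10 on effector T cells, and TNFRSF9, a costimulatory receptor, exceeded an SD of 1. CXCR3 was -5.93, -5.85, -5.23 and -4.73 in P18 with 4 of 4 spots above background, -8.11, -9.03, -5.03 and -5.03 in P15, and -7.96, -8.32, -7.36 and -6.21 in NP15, with 2 of 4 above background in each of these groups. The receptor CXCR4, which binds CXCL12, was -1.44 in P15 replicate 4, against -2.87 to -2.85 in the other P15 animals.

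The high values clustered in replicate 4 of P15 and of NP15. In P18 they did not, with replicate 3 highest for 17 members (31.5%). Replicate 4 was the highest of its group for 18 of the 54 tested members in P18 (33.3%), 32 in P15 (59.3%) and 34 in NP15 (63.0%). Over all 12316 genes these shares were 26.8% in P18, 23.8% in P15 and 46.4% in NP15, and over the 462 genes with a pooled SD above 1 they were 34.6%, 33.1% and 34.8% in the same order of groups. For the ligands alone the animal was highest for 20 of 28 in P15 and 17 of 28 in NP15. In NP15 replicate 4 was also highest for the most genes of all kinds, so that this array stood apart as a whole.

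Summed leukocyte markers were mostly highest in replicate 4 of each group, though by little for the macrophage and myeloid sum in NP15. The summed signal of 7 pan-leukocyte markers, in multiples of P75, was 9.24 in P18 replicate 4 against 3.59 to 4.94 in the other P18 animals, 6.92 in P15 replicate 4 against 3.76 to 5.21, and 8.51 in NP15 replicate 4 against 4.26 to 5.05. For 14 T-cell and natural killer cell markers, of which 10 were above background on all arrays, it was 7.11 in P18 replicate 4, 3.57 in P15 replicate 4 and 2.74 in NP15 replicate 4, against 0.97 to 1.94 in all other animals. The macrophage and myeloid sum of 12 markers was 48.3 in P18 replicate 4, 29.6 in P15 replicate 4 and 14.2 in NP15 replicate 4, with 18.5 to 25.4, 11.0 to 18.4 and 7.94 to 13.6 in the other animals of P18, P15 and NP15. The sum of 4 B-cell and plasma-cell markers was also highest in replicate 4 of each group. For 2 neutrophil and eosinophil markers the highest was replicate 4 in P15 and NP15, but replicate 3 in P18 (1.29, against 0.92 in replicate 4). The part of leukocytes in the members' spread was not tested.

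**Figure D4:**
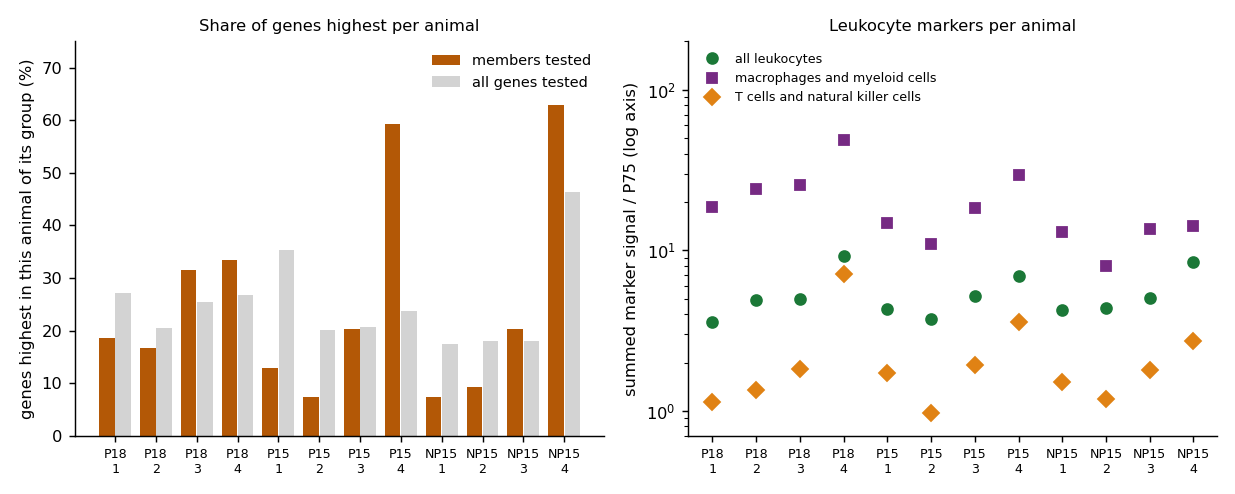
Left, the percentage of the 54 tested members and of all 12316 genes (vertical axis) whose highest value in a group was in each animal of P18, P15 and NP15, with shares within a group adding up to 100. Right, the summed signal of leukocyte marker lists over P75 in each animal (vertical log axis). Replicate 4 was highest for 59.3% of members in P15 and 63.0% in NP15, and had the highest T-cell and natural killer cell sum in each group.

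P15 against NP15 asks whether pregnancy alters these genes on day 15. None of the 54 members passed limma with Benjamini-Hochberg adjustment at 0.05 (0 higher, 0 lower), against 1.01% of all genes called, 0.414% higher and 0.593% lower. None reached an unadjusted p of 0.05 either, against 8.75% of all genes, and in no member did the 4 P15 animals lie wholly above or below the 4 NP15 animals (1.54% of all genes lay wholly above and 4.96% wholly below). The counts over all genes depended on array position. Without the outer 24 rows at each end, 0 of 9292 genes were called higher and 0 lower, and 392 had an unadjusted limma p under 0.05. Among the members the lowest adjusted p by limma was 0.662, for CCL25, a ligand of CCR9, at -0.33 ± 0.17 log2 units (difference ± SE, n = 4 each). CCL19, the other ligand of CCR7, differed by -0.57 ± 0.42, and CCL21 by -1.60 ± 1.20, the largest difference among members, which was -0.01 without P15 replicate 4. TNFSF13B differed by 0.92 ± 0.83 in the other direction. The probes of CCL25, CCL19 and TNFSF13B lie in the outer rows, and that of CCL21 does not. The median SE over members was 0.42, against 0.19 over all genes, so that a difference had to be larger among these genes to pass.

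P18 against P15 asks what differs between the days of gestation. Of 54 members, 6 passed (11.1%), against 28.3% of all genes, and all 6 were lower in P18 (15.5% of all genes were lower and 12.8% higher). They were 5 receptors, IL17RE, IL22RA1, IL11RA, TNFRSF21 and CD40, and the ligand subunit IL12A, of which IL17RE and IL12A were above background on no P18 array. The 4 P18 animals lay wholly below the P15 animals for 5 members, against 18.5% of all genes, and wholly above for IL10 alone, against 16.1%. Those below were IL17RE, IL12A, IL22RA1, IL11RA and TNFRSF21. Of them IL17RE, IL12A and IL22RA1, the last above background on 1 P18 array, were tested only through the other groups. The median difference over the 54 members was -0.14 log2 units, against -0.03 over all genes.

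P18 against NP15 differed in both day and pregnancy. It gave 8 members (14.8%), against 28.9% of all genes, and all 8 were lower in P18 (18.6% of all genes were lower and 10.4% higher). The same 6 genes passed, together with IFNLR1 and IL10RB. P18 lay wholly below NP15 for 6 members, against 18.7% of all genes, and wholly above for CXCR3 and CCL21, against 11.8%. Among those below, IL17RE and CCR1 were above background on no P18 array and IL22RA1 on 1. These were tested only through the other groups, and CXCR3 only through P18. The median difference over members was -0.08 log2 units, against -0.06 over all genes. The comparisons share the P18 arrays, so that the second is no repeat of the first.

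These directions depend on the scaling. Centring each array on its median moved the median difference of all genes to 0.20 in P18 against P15 and 0.18 in P18 against NP15, and the share of called genes that were higher from 45.3% to 72.8% in P18 against P15 and from 35.8% to 67.6% in P18 against NP15. Among members it gave 3 higher and 3 lower in P18 against P15, and 6 higher and 2 lower in P18 against NP15. With it IL17RE and IL22RA1 remained lower in both comparisons and IL12A in the first, whereas CCR7, CCR8 and IL10 passed as higher in both. With normexp background correction the share of higher genes was 60.5% in P18 against P15 and 55.7% in P18 against NP15, and the members called were 2 higher and 3 lower, and 3 higher and 4 lower.

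IL17RE, the receptor chain that with IL17RA binds IL17C on epithelial cells, was the member with the smallest p. It was -8.38, -7.90, -7.39 and -7.65 in P18, -5.92, -5.97, -5.06 and -5.40 in P15, and -5.95, -5.63, -5.44 and -5.56 in NP15. All 4 P18 values lay below all others, but none of these spots was well above background, and replicates 1 and 4 sat at their array's lowest value. A fold is therefore a bound, set against the lowest signal well above background on each P18 array: IL17RE was at least 1.18-fold lower in P18 than in P15 and at least 1.13-fold lower than in NP15 (limma adjusted p 0.00015 and 0.000143). The means were -7.83 in P18, which lies under what those arrays could measure, -5.59 in P15 and -5.64 in NP15. The p-values rest on these dim P18 values, and the gene was tested only through the other groups. With normexp background correction IL17RE differed by -0.51 log2 units from P15 and -0.39 from NP15 (limma adjusted p 0.0145 and 0.0461).

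IL22RA1, the specific chain of the IL22 receptor on tissue cells other than leukocytes, was above background on 1 of 4 P18 arrays. Its values were -5.60, -6.30, -5.99 and -5.62 in P18, -4.67, -4.76, -4.92 and -5.41 in P15, and -4.71, -4.86, -4.70 and -5.25 in NP15, with no overlap between P18 and the other groups. It was lower in P18, with a difference of -0.94 ± 0.21 log2 units from P15 (limma adjusted p 0.007) and -1.00 ± 0.21 from NP15 (limma adjusted p 0.00475), in which 3 of the 4 P18 spots were not above background. With normexp background correction the differences were -0.26 and -0.28, and neither passed (limma adjusted p 0.185 and 0.160).

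IL10RB, the shared second chain of the IL10, IL22 and type III interferon receptors, was above background throughout. It was -0.50, -0.93, -0.84 and -0.71 in P18, -0.53, -0.88, 0.15 and -0.54 in P15, and -0.15, -0.29, 0.26 and -0.26 in NP15. P18 lay wholly below NP15, at -0.64 ± 0.21 log2 units (limma adjusted p 0.0407), and overlapped P15. IFNLR1, which pairs with IL10RB to bind type III interferons, was -6.72, -6.08, -5.56 and -7.65 in P18 with 1 of 4 spots above background and replicate 4 at its array's lowest value, -5.74, -5.83, -5.01 and -5.16 in P15, and -5.28, -5.93, -4.89 and -4.01 in NP15. It was lower in P18 than in NP15, with a difference of -1.48 ± 0.47 (limma adjusted p 0.0369) whose size rests on those dim spots and was -0.32 with normexp background correction, and the groups overlapped. Both calls were lost under 10 of the alternatives run, over which the adjusted p by limma ranged from 0.0139 to 0.148 for IL10RB and from 0.0206 to 0.369 for IFNLR1.

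IL11RA, the specific receptor chain for IL11, was bright and steady. It was 0.99, 1.16, 0.71 and 0.90 in P18, 1.31, 1.48, 1.43 and 1.47 in P15, and 1.49, 1.40, 1.71 and 1.42 in NP15. All 4 P18 animals lay below all others. The difference was -0.48 ± 0.12 log2 units from P15 (1.39-fold lower, limma adjusted p 0.0104) and -0.57 ± 0.12 from NP15 (1.48-fold lower, limma adjusted p 0.00413).

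TNFRSF21, a TNF receptor family member with a death domain, showed the same arrangement. Its values were 1.77, 2.19, 1.53 and 2.12 in P18, 2.27, 2.56, 2.38 and 2.58 in P15, and 2.51, 2.28, 2.58 and 2.69 in NP15, and P18 did not overlap the other groups. The difference was -0.54 ± 0.16 from P15 (1.46-fold lower, limma adjusted p 0.025) and -0.61 ± 0.16 from NP15 (1.53-fold lower, limma adjusted p 0.0141). The call against P15 was lost in 5 of 23 alternatives, where its adjusted p by limma reached 0.149: with median centring and without P15 replicate 2, P15 replicate 4, P18 replicate 1 or P18 replicate 3. CD40, the receptor through which T cells activate antigen-presenting cells, was -4.51, -4.50, -3.77 and -4.58 in P18, -3.95, -3.85, -3.57 and -3.62 in P15, and -3.92, -3.85, -3.81 and -3.37 in NP15. Replicate 3 of P18 overlapped both other groups, and the difference was -0.59 ± 0.20 from P15 (limma adjusted p 0.0419) and -0.60 ± 0.20 from NP15 (limma adjusted p 0.0388). Both CD40 calls were lost in most of the alternatives, with adjusted p by limma of 0.00593 to 0.229 against P15 and 0.00518 to 0.226 against NP15.

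IL12A, a subunit of the cytokine IL12, which drives type 1 T-cell responses, was the ligand with an adjusted p under the threshold, and it was tested only through its P15 and NP15 signal. It was -6.61, -8.34, -7.35 and -7.23 in P18 with no spot above background and replicate 2 at its array's lowest value, -6.11, -5.69, -6.08 and -5.30 in P15, and -6.53, -6.86, -5.97 and -6.25 in NP15. It was at least 1.02-fold lower in P18 than in P15 (limma adjusted p 0.00516, means -7.39 and -5.80), and with normexp background correction the difference was -0.16 log2 units (limma adjusted p 0.452). Against NP15, whose mean was -6.40, the adjusted p by limma was 0.0475 and no fold can be given, because the NP15 level was under the lowest signal that the P18 arrays measured. That adjusted p ranged from 0.0167 to 0.321 over the alternatives, and the direction turned with normexp background correction.

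**Figure D5:**
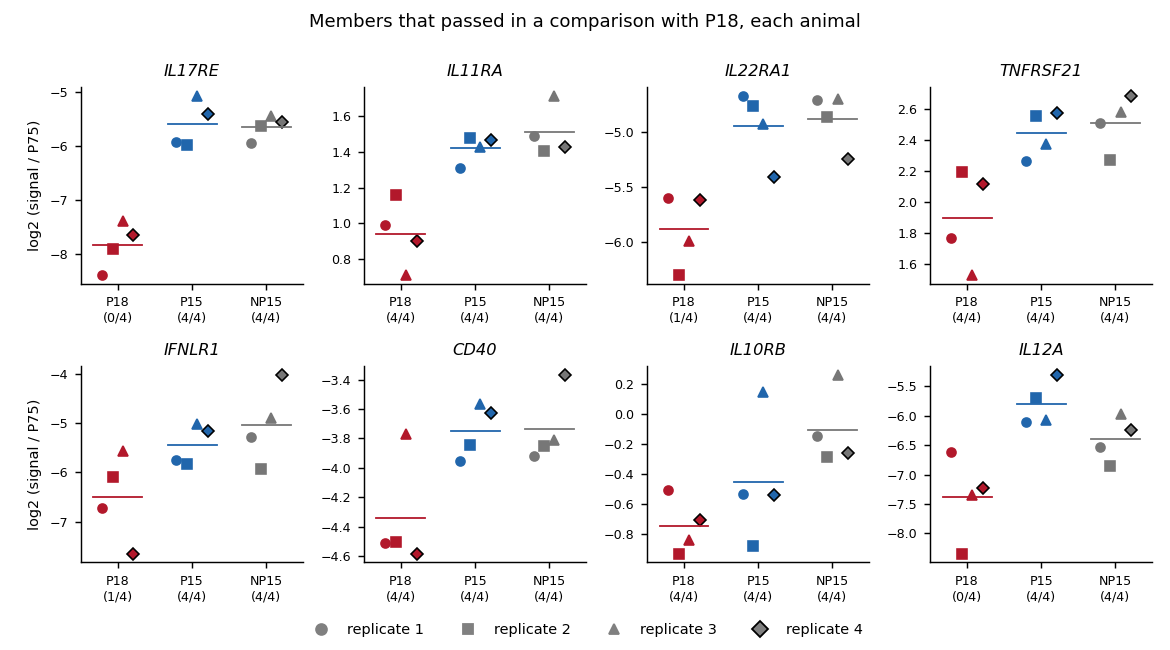
Log2 signal over P75 (vertical axis, its own scale in each panel) of the 8 members that passed in a comparison with P18, in each animal of P18, P15 and NP15, with the group mean as a line and the arrays of 4 well above background under each group. In IL17RE, IL22RA1, IL11RA and TNFRSF21 all P18 animals lie below all P15 and NP15 animals.

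Among chemokines and their receptors no member passed in either comparison with P18. Closest was CXCL8, at -2.06 ± 0.74 log2 units in P18 against P15 (limma adjusted p 0.0591), with 3 of 4 P18 spots not above background. CCL19 differed by -1.14 ± 0.42 in P18 against NP15 (limma adjusted p 0.0625) and CCL25 by -0.45 ± 0.17 (limma adjusted p 0.0731). CCR8 differed by 0.34 ± 0.13 in P18 against P15 (limma adjusted p 0.0743) and by 0.31 ± 0.13 in P18 against NP15 (limma adjusted p 0.0972). CCR7, the receptor for CCL19 and CCL21, differed by 1.43 ± 0.57 in P18 against P15, with 2 of 4 spots above background in each of these groups.

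CCL21 depended on 1 animal. In P18 against P15 the difference was 2.68 ± 1.20 log2 units (limma adjusted p 0.121) with all arrays and 1.09 without P15 replicate 4 (limma adjusted p 0.0338). In P18 against NP15 it was 1.08 (limma adjusted p 0.537), and without P15 replicate 4, which also enters the shared spread, the same difference had a limma adjusted p of 0.0227. All 4 P18 animals lay above all 4 NP15 animals for this gene. Of the 7 pan-leukocyte markers, 1 was higher and 1 lower in P18 against P15, with a median difference of 0.02 log2 units, and 0 were higher and 1 lower in P18 against NP15, with a median of 0.01. The lower one, PTPRC (CD45), was above background on no P18 array and on all P15 and NP15 arrays. The summed macrophage and myeloid signal was 18.5 to 48.3 in P18, 11.0 to 29.6 in P15 and 7.94 to 14.2 in NP15. Whether these shifts bear on the members' differences was not tested.

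Other interleukin ligands did not pass. IL10 was higher in all 4 P18 animals than in all P15 animals, at 0.30 ± 0.13 log2 units (limma adjusted p 0.116). IL12B, the partner subunit of IL12A, was above background on no P18 array and 3 of 4 P15 arrays, with a limma adjusted p of 0.0671 and values of -7.92, -8.34, -7.87 and -6.41 in P18, -4.37, -7.81, -5.68 and -5.68 in P15, and -6.86, -6.91, -7.37 and -5.92 in NP15. IL15, which sustains natural killer cells, and CCR1, a receptor for CCL3 and CCL5, were above background on no P18 array and on all 4 NP15 arrays, with limma adjusted p of 0.0535 and 0.0664 in P18 against NP15.

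Another 11 probes belong to these families by their current RefSeq symbol alone, since the array lists them by gene number or older name. They include CXCL16, CXCL12, IL33, CXCR5, CCL4, IL1R2, CXCL13, CCR3, CCR4, CCL11 and a further probe for IL13RA1. CXCL16, a membrane-bound chemokine that binds CXCR6, was 1.24, 1.29, 1.32 and 1.39 in P18, 0.30, -0.01, 0.08 and 0.11 in P15, and 0.00, -0.34, 0.12 and 0.62 in NP15. All P18 animals lay above all others, at 1.19 ± 0.17 log2 units from P15 and 1.21 ± 0.17 from NP15 (limma adjusted p 0.000626 and 0.000537). CXCL12, the ligand of CXCR4, was 1.88, 1.97, 1.63 and 1.34 in P18, 2.97, 2.10, 2.46 and 1.87 in P15, and 2.12, 1.96, 2.10 and 2.15 in NP15. It was lower in P18 than in P15, with a difference of -0.65 ± 0.22 (limma adjusted p 0.0466, lost in 12 of 24 alternatives, where it reached 0.153) and overlap, and did not pass against NP15 (limma adjusted p 0.224).

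Related cytokine genes outside these symbols were compared as a list of 41, of which 25 were on the array and 20 tested. It holds CD40, FAS and CD40LG too, which are members by their array names. None passed in P15 against NP15, 4 were higher and 2 lower in P18 against P15, and 3 were higher and 1 lower in P18 against NP15, where 28.3% and 28.9% of all genes were called. LTA, the lymphotoxin that binds TNF receptors, averaged -5.31 in P18, -6.71 in P15 and -6.50 in NP15 and was higher in P18 in both comparisons (limma adjusted p 0.00184 and 0.00424). Its P15 and NP15 means lay under the lowest signal well above background on P18 arrays (-6.08 to -5.36). LIFR, the receptor of leukaemia inhibitory factor, averaged -0.15 in P18, 0.70 in P15 and 0.28 in NP15 and was lower in P18 than in P15 (limma adjusted p 0.00314).

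Of 25 tested genes that relay cytokine signals inside the cell, none passed in P15 against NP15, 3 were higher and 2 lower in P18 against P15, and 2 were higher and 3 lower in P18 against NP15, again beside 28.3% and 28.9% of all genes. RIPK1, a kinase downstream of TNF receptors, averaged -4.90 in P18, -3.75 in P15 and -3.59 in NP15. IRAK4, a kinase downstream of the IL1 receptor, averaged -2.41 in P18, -0.86 in P15 and -0.68 in NP15. Both were lower in P18 in both comparisons, whereas NFKB1 and TRAF2 were higher. Each of these 2 was above background on 3 of 4 P18 arrays, and on 3 (NFKB1) and 2 (TRAF2) of 4 P15 arrays. Their P15 means, -7.10 for NFKB1 and -7.47 for TRAF2, lay under the lowest signal well above background on P18 arrays (-6.08 to -5.36). TRAF6, above background on all 12 arrays, was higher in P18 than in P15 by 0.49 ± 0.10 log2 units (limma adjusted p 0.00399). It did not pass against NP15 (limma adjusted p 0.052).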

How the data were processed

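RNA of each animal, labelled with Cy3, was hybridised to 1 Agilent 1-colour array with 15208 probes other than controls and 536 control spots. The deposited scanner files give spot intensities on a linear scale, corrected for background by Agilent Feature Extraction (9.5 per the submitters' processing notes, 9.5.1.1 per the file headers). The authors' deposited value table is in log2 units. Each of its columns equals the log2 processed signal less an array constant, to within 1.79e-06, so scale, centring and direction are known. Column medians were -3.32 to -2.99. Of the 69 members, 68 matched a symbol in a RefSeq table (ARS-UCD2.0), used for names only.

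From the intensities, log2 values were taken relative to each array's 75th percentile, leaving out spots marked as irregular. Probes well above background on 3 or more arrays of any group (12605) were kept, and the brightest stood for its gene (12316 genes). The test was limma 3.58.1 in R 4.3.3, with lmFit and eBayes fitted to 3 group means over all 12 arrays and Benjamini-Hochberg adjustment over all genes, two-sided at 0.05. The code was tested on simulated data. The number of arrays limits the precision, and animals are the replicates.

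The members, gene lists, tests and naming rule were chosen with earlier results of these data known. Named are the members that passed, in each family the 3 of smallest p per comparison and the one of highest SD, and members above background on all arrays, except 1 member whose values are not reported here. The values of CXCL2, GRO1, IL1A, IL1B, IL6, CXCL12, CXCL16 and single genes of other lists were chosen after they were seen. Symbols that name only a partner protein, such as FADD, were not counted as members. Alternatives changed the normalization, background correction, filter, position on the array, probe choice, arrays fitted, blocks and weights. Using the deposited table, widening the members by current symbol and recomputing the spread were added after seeing the data.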

Additional observations from a re-analysis of the deposited data

Results flagged for a closer look

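In 132 combinations of a tested member and a group with all 4 arrays above background, 8 had an animal far from the other 3, by Dixon's test at the 95% level. By chance about 1 in 20 such groups would. In P15, replicate 1 was high for CCL5 (1.99, against 0.54 to 0.70 in the other P15 animals) and for CCL25 (-3.09, against -3.56 to -3.50). In P15, replicate 4 was high for CXCR4 (-1.44, against -2.87 to -2.85) and for CCL24 (-3.90, against -4.63 to -4.55). In NP15, replicate 4 was high for CXCL8 (-2.90, against -5.53 to -5.43) and for CXCL5 (-1.07, against -3.25 to -2.89). In P18, CD40 was high in replicate 3 (-3.77, against -4.58 to -4.50), and TNFRSF19L was low in replicate 2 (-4.11, against -3.63 to -3.53). Of these 8, 4 were a replicate 4, the animal with the highest summed pan-leukocyte signal of its group, and the part of these cells was not tested.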

How the results depend on the processing

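P15 against NP15 gave 0 members under every alternative run, with at most 4 at an unadjusted p under 0.05. In P18 against P15 the 6 members became 13 with no filter, 3 on probes above background on all 12 arrays and 10 with array weights. In P18 against NP15 the 8 became 17 with no filter, 4 on probes above background on all 12 arrays, and 5 with the local position adjustment and on inner rows. With no filter, 7 of the 13 and 8 of the 17 were higher in P18, among them ligands above background on no array, where the lowest value an array reports was higher on P18 arrays. Leaving out 1 array gave 4 to 8 members in P18 against P15 and 4 to 9 in P18 against NP15, with 5 without NP15 replicate 3, 5 without NP15 replicate 4 and 4 without P18 replicate 4. Same-numbered animals of P18 and P15 correlated at -0.03 to 0.15 in their deviations, against -0.235 to 0.146 for animals of different number. For P18 and NP15 it was -0.04 to 0.17, against -0.216 to 0.192. For P15 and NP15 it was 0.0976 to 0.294, all positive, against -0.237 to 0.186. The labels describe no pairing, and whether the numbers pair animals was not tested. The fit with the replicate block gave 0 in P15 against NP15, 9 in P18 against P15 and 11 in P18 against NP15. The other settings gave 4 to 8 and 7 to 11. IL17RE passed in both comparisons under all 23 alternatives that tested it. Its P18 spots were not above background, and the fit on probes above background on all 12 arrays did not include it. IL11RA and TNFRSF21 lie in the outer 24 rows at an end of the array, so the fit on inner rows did not test them. IL11RA missed the threshold with median centring alone and IL22RA1 with normexp alone. TNFRSF21 missed it in 5 settings against P15 (median centring, and without P15 replicates 2 or 4 or P18 replicates 1 or 3). Against NP15 TNFRSF21 missed it in 2. CD40 missed it in 14 against P15 and 13 against NP15, and IFNLR1 and IL10RB in 10 each against NP15. IL12A missed it against P15 with normexp alone and against NP15 in 15, and with normexp it was 0.20 log2 units higher in P18 than in NP15, as were CCR1 (0.15) and IL15 (0.13). All 3 were above background on no P18 array, and the cause was not tested. CXCL16 in P15 against NP15 ranged from -0.13 to 0.19 with 1 array left out and never passed. The median pooled SD of members was 0.55 to 0.69 with 1 array left out. The lowest signal well above background was -6.08 to -5.36 on P18 arrays, -7.56 to -6.74 on P15 arrays and -8.09 to -7.34 on NP15 arrays, and a level under it is only a bound.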
